A study of Mus musculus with 16 samples.

Results

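The mRNA levels of the genes of the proteasome, named *Psma*, *Psmb*, *Psmc*, *Psmd*, *Psme*, *Psmf* and *Psmg*, were examined in bulk RNA-seq of skeletal muscle. The genes were taken by symbol, as every mouse symbol made of one of these stems and a number, pseudogenes left out. Of 55471 gene identifiers in the deposited table, 50 carried such a symbol, and 48 of them had 10 or more counts in at least 6 of the 16 libraries. The remaining 2, *Psma8*, the alpha subunit of the testis, and *Psmb11*, the beta subunit of the thymus, reached 10 counts in 0 libraries. All 48 genes also passed the filter used for testing and are among the 14331 genes tested. One of the 48, *Psmc3ip*, matched by symbol alone: it encodes a protein that binds the PSMC3 protein and is not a proteasome subunit.

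The 16 libraries are those of 16 male mice, of which 10 are labelled heterozygous (*Npr1*+/-) and 6 wildtype (*Npr1*+/+). All mice were on a C57BL/6J background and entered the protocol at 12 weeks of age, and all received a high-fat diet (HFD) for 12 weeks, so the diet was shared by both groups and was not compared. The *Npr1*+/- mice carry 1 disrupted copy of *Npr1* in every tissue, not in muscle alone, and the *Npr1*+/+ mice were their littermates. The labels do not say which muscle was used. The mice came from 4 cages that each held both labels, and weighed 36.5 to 48.1 g (*Npr1*+/-) and 40.5 to 54 g (*Npr1*+/+).

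The proteasome is the protease that degrades most proteins tagged with ubiquitin. Its 20S core is a barrel of stacked rings, with outer rings of alpha subunits that gate the entry and inner rings of beta subunits that hold the catalytic sites beta1, beta2 and beta5. A 19S cap, made of an ATPase ring and non-ATPase subunits, binds and unfolds the ubiquitin-tagged substrates. Under interferon the standard catalytic subunits can be replaced by those of the immunoproteasome, which favors peptides for class I antigen presentation. In muscle, the ubiquitin-proteasome system is known for its part in the turnover of contractile proteins and in atrophy.

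Library totals ranged from 15832624 to 59682677 counts in the *Npr1*+/- mice and from 15273472 to 29630298 counts in the *Npr1*+/+ mice. The tissue label was checked against marker genes. The summed level of 8 genes of the muscle fiber was 99017 to 174928 CPM (the usual per-million scale, relative to the TMM-scaled total of the library) in the *Npr1*+/- libraries and 104149 to 158464 CPM in the *Npr1*+/+ libraries, whereas that of 9 leukocyte genes was 58.1 to 172 CPM and 86.6 to 161 CPM. *Npr1* mRNA, the targeted gene, was 13.6 ± 3.87 CPM (SD, n = 10) in the *Npr1*+/- libraries and 12.2 ± 1.05 CPM (SD, n = 6) in the *Npr1*+/+ libraries, which on the log2 scale differed by 0.09 (standard error, SE, 0.20; Benjamini-Hochberg adjusted p = 0.99999, edgeR's quasi-likelihood test). Whether the counted exons include the disrupted part of *Npr1* is not known, so this value does not check the label, and every direction below is between libraries as labelled. *Npr1*+/- replicates 5, 6 and 7 stood apart from the other libraries, as described after the labels are compared, and the comparisons are therefore also given without them. The measurement is of whole tissue, in which fewer cells of a type and less RNA per cell cannot be told apart.

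Levels between genes were compared as CPM per kilobase of the deposited gene model, called level per kb. The model counts every annotated exon of a gene, so a gene with long exons that muscle seldom uses has a lower level per kb than its main transcript would have. The 14 standard subunits of the 20S core, *Psma1* to *Psma7* and *Psmb1* to *Psmb7*, which stand in equal numbers in the particle, had median levels per kb from 34.4 (*Psma5*) to 138 (*Psmb6*), a 3.998-fold range. Among the alpha subunits *Psma6* was highest with 108 per kb, and *Psma4* followed with 80.2 per kb. The structural beta subunits lay between 40.6 (*Psmb3*) and 86.3 per kb (*Psmb2*). The 17 subunits of the 19S cap spread wider, from 17.7 (*Psmd11*) to 144 per kb (*Psmc3*), an 8.14-fold range. *Psmc3*, an ATPase, and *Psmd8*, a subunit of the lid with 136 per kb, had the highest medians beside *Psmb6* and *Psmb5*.

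Genes that help to build the particle were lower than the standard subunits of the 20S core and the 19S cap. The 20S assembly chaperones lay between 2.75 (*Psmg3*) and 11.4 per kb (*Psmg2*), and the 19S assembly chaperones *Psmd5*, *Psmd9* and *Psmd10* had 4.71, 4.17 and 9.72 per kb. All 7 were below the lowest subunit of the 19S cap, and above the immunoproteasome subunits *Psmb9* and *Psmb8*, whose levels are given with the catalytic pairs. Among the activators, which open the core without the 19S cap, *Psme4* (PA200) and *Psme3* (PA28 gamma) had 41.3 and 29.3 per kb, above the interferon-responsive pair *Psme1* and *Psme2* (PA28 alpha and beta) with 15.4 and 13.3 per kb. *Psmf1*, the inhibitor PI31, had 2.32 per kb. *Psme2b*, a near copy of *Psme2* with which it could share reads, was the lowest with 0.617 per kb and 5 to 38 counts per library, so its values are uncertain.

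**Figure D1:**
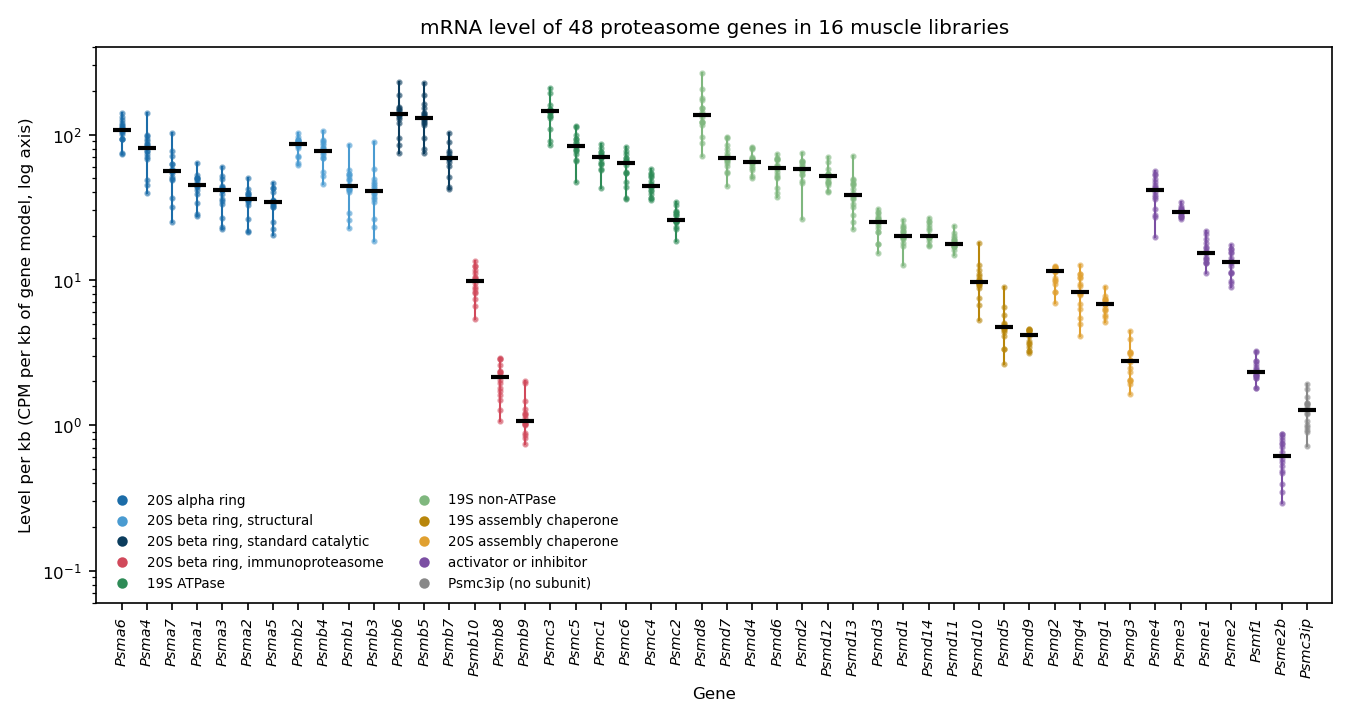
Level of the 48 genes in each of the 16 libraries, in CPM per kb of gene model on a log axis, grouped by role. Points are libraries, the vertical line spans them and the black bar is the median. The standard subunits of the core sit between 34.4 and 138 per kb, and the immunoproteasome subunits *Psmb9* and *Psmb8* at 1.08 and 2.16 per kb.

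The catalytic subunits of the standard core were among the highest members. *Psmb6* (beta1) had 138 per kb, *Psmb5* (beta5) 131 per kb and *Psmb7* (beta2) 69.0 per kb, as medians over the 16 libraries. Their immunoproteasome counterparts *Psmb9*, *Psmb8* and *Psmb10* had 1.08, 2.16 and 9.85 per kb. *Psmb5* lies on chromosome 14 from 54614119 to 54618022 (GRCm38, minus strand) and *Psmb6* on chromosome 11 from 70525367 to 70527649 (plus strand). Proteasome genes are known targets of the factor NRF1, encoded by *Nfe2l1*, which binds antioxidant response elements, and both genes carry the core of this element in their promoter. The promoter windows run from 250 bases before the RefSeq start site to 50 bases from it (GRCm38.p6) and are shown because these genes lead the 20S core, with the matched letters TGACNNNGC in capitals.
Psmb5 promoter, chr14:54617946-54618245, minus strand: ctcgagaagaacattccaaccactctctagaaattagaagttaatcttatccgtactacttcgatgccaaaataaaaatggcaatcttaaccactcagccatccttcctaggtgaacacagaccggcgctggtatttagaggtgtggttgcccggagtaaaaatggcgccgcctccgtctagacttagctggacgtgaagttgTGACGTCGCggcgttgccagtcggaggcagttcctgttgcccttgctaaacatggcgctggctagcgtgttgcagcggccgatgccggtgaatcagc
Psmb6 promoter, chr11:70525107-70525406, plus strand: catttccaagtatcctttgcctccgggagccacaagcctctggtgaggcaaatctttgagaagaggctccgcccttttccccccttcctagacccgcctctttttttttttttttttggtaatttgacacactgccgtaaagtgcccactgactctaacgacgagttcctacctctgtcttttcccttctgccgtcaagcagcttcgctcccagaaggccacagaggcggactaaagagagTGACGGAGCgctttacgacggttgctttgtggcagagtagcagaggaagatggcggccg
The match in *Psmb5* has its first base at -47 from the start site, and that in *Psmb6* at -9. Of the 48 genes, 41 had a promoter in the RefSeq table, and 6 of the 41 (14.6%) held this core on either strand. The same core was found in 13.99% of all 27025 genes with such a window, so it was about as common among the proteasome genes as elsewhere. The other 4 genes with it were *Psmc6*, *Psmd9*, *Psmd12* and *Psme4*. The core of the interferon element, GAAANNGAA on either strand, was in 7 of 41 promoters (17.1%) against 9.76% of all genes, among them *Psme1*, and in 0 of the 3 immunoproteasome promoters. A CCAAT box on either strand was in 14 of 41 promoters (34.1%) against 41.1% of all genes, and in 5 of the 7 alpha subunits. A match is a description of letters and not of binding.

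Whether the label was accompanied by another composition of the core was examined through the catalytic pairs. The share of the immunoproteasome subunit in its pair, per kb, was computed for each mouse. For beta1, *Psmb9* of *Psmb9* and *Psmb6*, the *Npr1*+/- mice had a lowest share of 0.596%, a median of 0.813% and a highest of 1.49%, and the *Npr1*+/+ mice 0.657%, 0.754% and 0.876%. The groups overlapped, with 4 *Npr1*+/- mice above and 1 below every *Npr1*+/+ mouse. The means were 0.931% ± 0.282 (SD, n = 10) and 0.757% ± 0.0732 (SD, n = 6), and the difference of 0.173 percentage points was within the spread between mice (exact permutation test, two-sided, p = 0.174, adjusted over the 3 pairs 0.278, and p = 0.169 with labels permuted within cages).

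For beta5, *Psmb8* of *Psmb8* and *Psmb5*, the shares were 0.788%, 1.73% and 2.33% (lowest, median, highest) in the *Npr1*+/- mice and 1.18%, 1.34% and 1.77% in the *Npr1*+/+ mice. Of the *Npr1*+/- mice, 5 lay above and 1 below the range of the other label. The difference was 0.290 percentage points with a standard error of 0.176 (two-sided exact permutation test, p = 0.185, adjusted 0.278). For beta2, *Psmb10* made up 12.6% ± 1.89 (SD, n = 10) and 12.4% ± 1.85 (SD, n = 6) of its pair with *Psmb7*, with 2 *Npr1*+/- mice above and 1 below the *Npr1*+/+ range (exact permutation p = 0.839). Without *Npr1*+/- replicates 5, 6 and 7, the differences were 0.105, 0.250 and 0.190 percentage points for beta1, beta2 and beta5, and none passed (exact permutation p = 0.378, 0.826 and 0.371). Replicate 8 of the *Npr1*+/- mice was the lowest mouse in all 3 pairs. Replicate 7, whose *Psmb6* and *Psmb5* levels were the lowest of all, was the highest for beta1 and beta5.

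**Figure D2:**
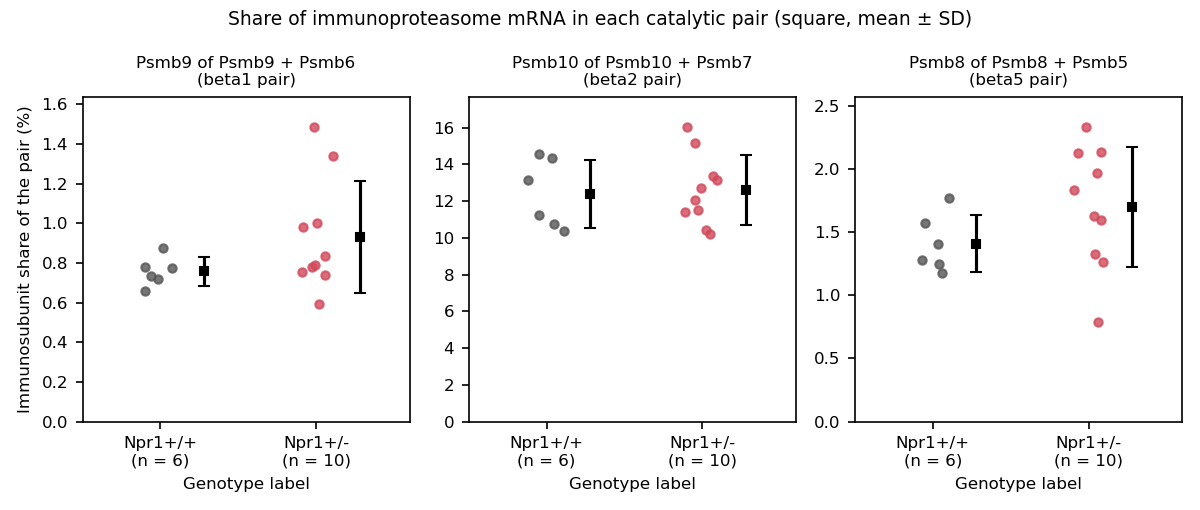
Share of the immunoproteasome subunit in each catalytic pair, in percent, for the 6 *Npr1*+/+ and 10 *Npr1*+/- mice. Points are mice and squares are the mean with SD. The labels overlap in each pair, with means of 0.931% and 0.757% for beta1, 12.6% and 12.4% for beta2, and 1.70% and 1.41% for beta5 (*Npr1*+/- and *Npr1*+/+).

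The immunoproteasome subunits were compared with the genes of class I antigen presentation from mouse to mouse. Over the 16 libraries, the correlation with the summed level of 10 such genes was r = 0.842 for *Psmb8* (Spearman's rho 0.879), 0.844 for *Psmb9* (rho 0.894) and 0.759 for *Psmb10* (rho 0.824). Without the 2 libraries farthest from the median of the sum these were 0.797, 0.845 and 0.694. *Psme2* had r = 0.782, and 0.690 without these 2 libraries. The standard subunit *Psmb5* had 0.652, and 0.690 without them, close to *Psmb10* and *Psme2*. *Psme1*, the partner of *Psme2*, was below it with 0.628, and 0.427 without them. With the summed leukocyte markers, r was 0.458 for *Psmb8*, 0.432 for *Psmb9*, 0.747 for *Psmb10*, 0.469 for *Psme1* and 0.796 for *Psme2*, and 0.647 for *Psmb5*. The class I sum is led by its most abundant genes, *B2m*, *H2-K1* and *H2-D1*, and the leukocyte sum by *Lyz2* and *Cd74*. The correlations thus describe mainly those genes. *Tap1*, *Tap2*, *Tapbp* and *Nlrc5* were highest in *Npr1*+/- replicates 7 and 6, where *B2m* was low (148 and 134 per kb, median 189). The libraries share their depth and scaling in all of these correlations, and the part of leukocytes in them was not tested.

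Between the labels, 0 of the 48 genes had an adjusted p-value under 0.05 in edgeR's quasi-likelihood test, adjusted by Benjamini-Hochberg, as was the case for 0 of the 14331 genes tested (0%). At an unadjusted p-value under 0.05 there were 0 of 48 genes, against 151 genes (1.05%) of all, and DESeq2 with the same design also called 0 of the 48. The estimates were small, with log2 fold changes from -0.39 (*Psmg4*) to 0.14 (*Psmb9*) and a median of -0.07, against -0.0060 over all genes. They were above 0 for 9 of 48 genes, whereas 48.4% of all genes had an estimate above 0. The median was -0.05 with the size factors of DESeq2, -0.03 after a correction for gene length, 0.02 without *Npr1*+/- replicates 5, 6 and 7, and 0.02 without *Npr1*+/+ replicate 4, so its sign depended on which mice were included. The CPM of the 2 labels overlapped for 48 of 48 genes. The share over all genes was not computed, so this overlap is not shown to be particular to the proteasome genes.

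*Psmb5* had 67.4, 118 and 203 CPM (lowest, median, highest) in the *Npr1*+/- mice and 104, 117 and 167 CPM in the *Npr1*+/+ mice, with a log2 fold change of -0.08 (SE 0.24). *Psmb6* had 139, 256 and 432 CPM against 240, 259 and 348 CPM, with a log2 fold change of -0.03 (SE 0.24). *Psmb7* had 143, 235 and 353 CPM against 208, 236 and 304 CPM, with a log2 fold change of -0.02 (SE 0.20). In each of the 3 the medians of the labels lay close together and the *Npr1*+/- mice reached both lower and higher than any *Npr1*+/+ mouse.

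The immunoproteasome subunits had the same form. *Psmb8* had 3.63, 7.39 and 9.75 CPM against 5.07, 7.13 and 7.94 CPM (log2 fold change 0.0097, SE 0.26). *Psmb9*, the highest estimate, had 2.73, 4.21 and 7.37 CPM against 3.21, 3.71 and 5.36 CPM (log2 fold change 0.14, SE 0.27). *Psmb10* had 9.19, 15.8 and 22.9 CPM against 14.2, 17.6 and 20.045 CPM (log2 fold change -0.14, SE 0.23). Each of these estimates was smaller than its standard error.

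The smallest p-values among the lower genes were those of *Psmc2*, an ATPase of the 19S cap, *Psmg4*, a chaperone of the alpha ring, and *Psme1*. *Psmc2* had 93.4, 127 and 166 CPM in the *Npr1*+/- mice and 126, 146 and 174 CPM in the *Npr1*+/+ mice, with a log2 fold change of -0.21 (SE 0.14, unadjusted p = 0.169, adjusted p = 0.99999). *Psmg4*, with 2.30, 4.12 and 7.02 CPM against 4.35, 5.15 and 6.12 CPM, had a log2 fold change of -0.39 (SE 0.29). *Psme1*, with 24.6, 32.3 and 48.2 CPM against 28.8, 34.5 and 45.7 CPM, had a log2 fold change of -0.23 (SE 0.17), and its partner *Psme2* one of -0.11 (SE 0.18). These estimates moved with single mice, for *Psmc2* between -0.30 and -0.10 and for *Psme1* between -0.29 and -0.07 when 1 mouse was left out. Of the higher genes, *Psmg3* had a log2 fold change of 0.13 (SE 0.24, between 0.012 and 0.21 when 1 mouse was left out) and *Psmd10* one of 0.10 (SE 0.24). *Psmd8*, the gene of highest mean level, and *Psme2b*, the lowest, had log2 fold changes of -0.01 (SE 0.26) and -0.30 (SE 0.34). By role, the estimates were below 0 for 6 of 6 ATPases, 10 of 11 non-ATPase subunits of the 19S cap and 6 of 6 activators and inhibitors, and above 0 for 3 of the 14 standard 20S subunits, with medians of -0.13, -0.10, -0.09 and -0.04. They were above 0 for 2 of 3 immunoproteasome subunits and 2 of 3 chaperones of the 19S cap, with medians of 0.0097 and 0.06, and below 0 for 3 of 4 chaperones of the 20S core, with a median of -0.14.

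**Figure D3:**
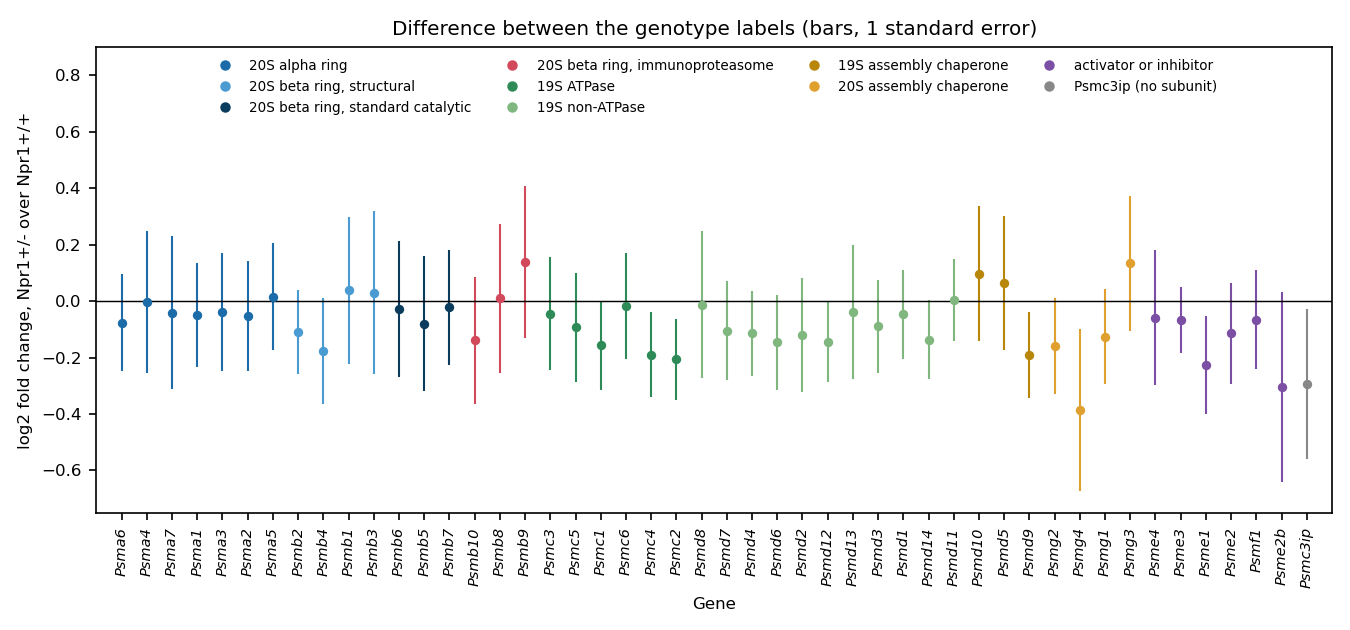
log2 fold change between the genotype labels (*Npr1*+/- over *Npr1*+/+) for the 48 genes in order of role, with bars of 1 standard error. Estimates run from -0.39 (*Psmg4*) to 0.14 (*Psmb9*), and 0 of 48 passed the test.

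The spread between mice was larger than the difference between the labels, and it was wider in 1 of them. The SD of log2 CPM was greater in the *Npr1*+/- than in the *Npr1*+/+ libraries for 43 of 48 genes (89.6%), with medians of 0.39 and 0.19. This was also so for 80.2% of all genes tested, with medians of 0.41 and 0.26. Over all 16 libraries the level of *Psmb3* varied 4.82-fold and that of *Psma7* 4.11-fold, whereas *Psme3* varied 1.32-fold.

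The 14 standard 20S genes moved together from mouse to mouse. As log2 CPM minus the mean of each gene over the 16 libraries, their median was lowest in *Npr1*+/- replicates 7, 6 and 5 with -0.74, -0.67 and -0.43, and all 14 genes were below their own mean in each of these 3 libraries. It was highest in *Npr1*+/- replicate 9 with 0.64 and in *Npr1*+/+ replicate 1 with 0.40. The other 11 libraries lay between -0.08 and 0.24. In replicate 7 the 14 genes ran from -1.10 (*Psma7*) to -0.44 (*Psmb2*), and in replicate 9 from 0.12 (*Psmb2*) to 1.17 (*Psmb3*), so *Psmb2* moved least at both ends. Replicate 7 held the lowest level of 12 of the 14 genes, replicate 6 that of the other 2, and replicate 9 the highest of 11.

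Replicates 7, 6 and 5 also stood apart in a measure over all genes. The length slope, the slope of this deviation on the log2 length of the gene over all 14331 genes, was 0.32, 0.24 and 0.18 in replicates 7, 6 and 5, in which long genes thus read relatively high. The other libraries lay between -0.19 (*Npr1*+/- replicate 9) and 0.06 (*Npr1*+/- replicate 3). The libraries with the highest core had the lowest slopes. *Npr1*+/- replicate 10, with a 20S median of 0.24, had a slope of -0.18, next to that of replicate 9. *Npr1*+/+ replicate 1 had -0.12, as did *Npr1*+/- replicate 1, with medians of 0.40 and 0.19. After a correction for length within each library, the median of the 14 genes was still -0.55, -0.56 and -0.32 in replicates 7, 6 and 5 and 0.60 in replicate 9. Several marker lists moved with these libraries. The endothelial sum was highest in replicates 7, 6 and 5, with 391, 347 and 243 CPM, and lowest in replicate 9 with 96.2 CPM. Each of its 3 genes was higher in replicates 7, 6 and 5 than in any other library. Only *Pecam1* was lowest in replicate 9, with 4.77 per kb. *Cdh5* and *Kdr* had 10.8 and 2.33 per kb there (medians 13.5 and 2.54) and were lowest in *Npr1*+/- replicate 10. The fibroblast markers did not move as 1 list. *Dcn*, the most abundant of the 3, was highest in replicate 9 with 191 per kb and had 60.8, 69.7 and 75.03 per kb in replicates 7, 6 and 5, whereas *Pdgfra* was highest in replicates 7 and 6 (2.07 and 1.86 per kb, 1.24 in replicate 9) and *Col1a1* in replicates 7 and 9 (17.2 and 16.4 per kb). The leukocyte sum was lowest in replicates 7 and 5, with 58.1 and 71.4 CPM, and 95.9 CPM in replicate 6. Its genes were divided in replicate 6, where *Csf1r* had 2.07 per kb (median 1.67) and *Itgam*, with few counts, 0.205 per kb (median 0.136). The 8 genes of the muscle fiber were divided as well. In replicates 7, 6 and 5, 3 of the 8 were higher than in any other library: the fast myosins *Myh1* (1792, 1306 and 984 per kb against at most 515) and *Myh4* (9769, 8734 and 4884 per kb against at most 3487), and the calcium pump *Atp2a1* (9088, 9492 and 8326 per kb against at most 6996). *Pvalb*, a calcium buffer of fast fibers, was lower there than in any other library, with 9884, 11302 and 11148 per kb against at least 16842, and highest in replicate 9 with 35970 per kb. *Mb* (2756, 2771 and 4086 per kb) and *Ckm* (6103, 6571 and 7310 per kb) were lowest of the 16 libraries in replicates 7 and 6 and near the low end in replicate 5. *Acta1* and *Tnnt3* lay within the range of the other libraries. The part of length, fiber genes or other cell types in the proteasome values was not tested.

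**Figure D4:**
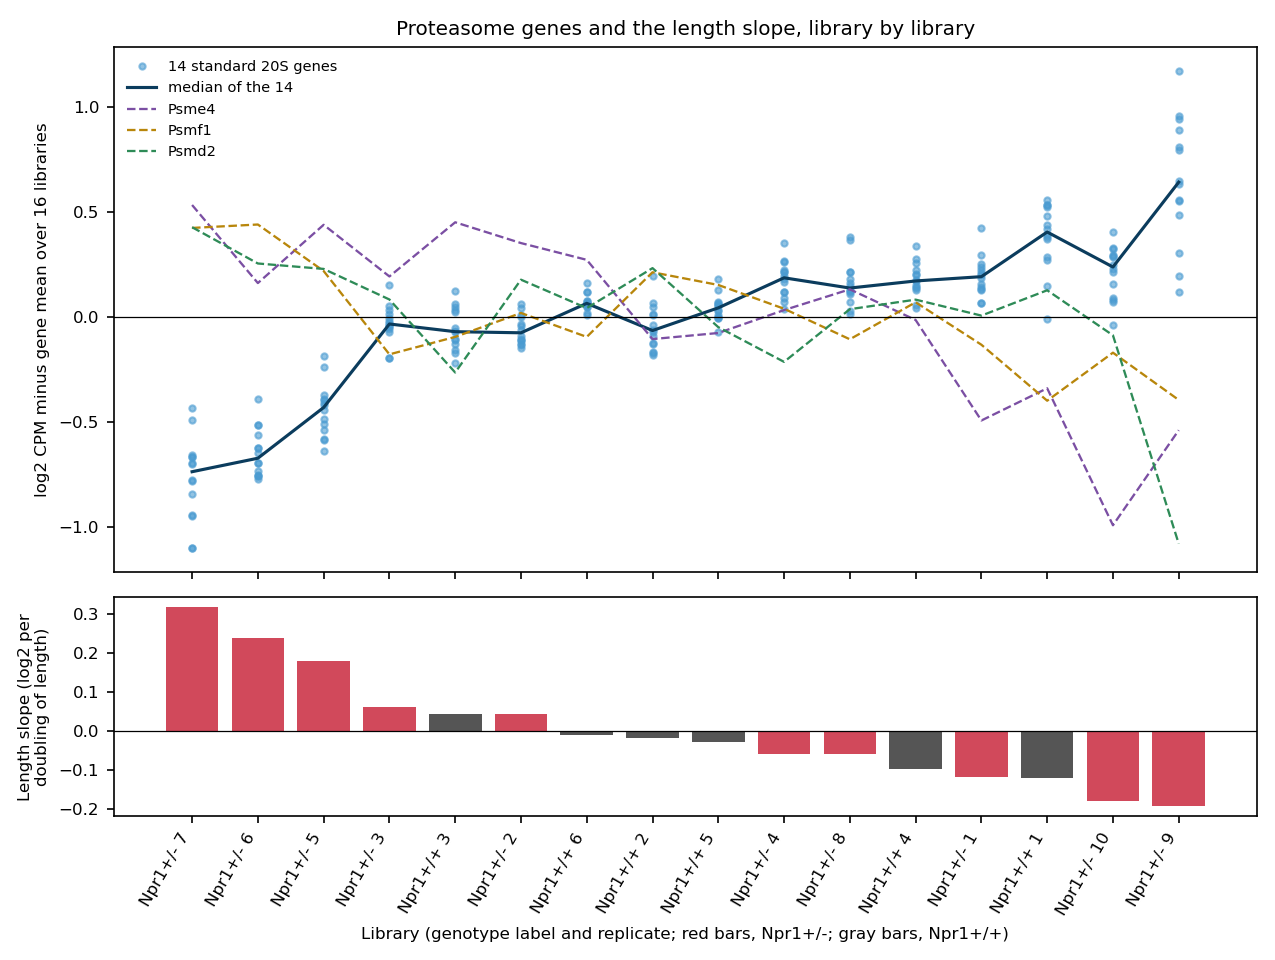
Upper panel, log2 CPM minus the gene's mean over 16 libraries for the 14 standard 20S genes (points), their median (line) and *Psme4*, *Psmf1* and *Psmd2* (dashed). Lower panel, the length slope of each library over 14331 genes, in log2 per doubling of gene length, by which the libraries are ordered. The median of the core runs from -0.74 in *Npr1*+/- replicate 7 to 0.64 in replicate 9, and the 3 dashed genes are above their mean in replicate 7 and below it in replicate 9.

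Each of the 14 standard genes correlated with the median of the other 13 over the 16 libraries, with r from 0.81 (*Psma6*) to 0.99 (*Psmb1*), and from 0.56 to 0.98 without the 2 libraries farthest from the median, *Npr1*+/- replicates 6 and 7. These values describe libraries that share their scaling, and in *Psmb2* and *Psma6*, the shortest models of the 14 after *Psmb5*, r was -0.54 and -0.14 after the length correction, whereas *Psmb5* kept 0.90. The 17 subunits of the 19S cap were divided. *Psmc3* (r = 0.98), *Psmd13* (0.97), *Psmd8* (0.96) and *Psmc6* (0.93) followed the core, whereas *Psmd1* (-0.74), *Psmd2* (-0.70) and *Psmd3* (-0.56) went against it. *Psmd1* and *Psmd2* encode the large scaffold subunits of the 19S base. In replicate 9, where the core was highest, *Psmd2* was 1.08 below its mean on the log2 scale at 106 CPM, and the other 15 libraries had 187 to 301 CPM.

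*Psmf1*, the inhibitor, and *Psme4*, the activator PA200, also ran against the core, with r = -0.88 and -0.68. *Psmf1* was 0.42 and 0.44 above its mean in replicates 7 and 6 and -0.40 from it in both replicate 9 and *Npr1*+/+ replicate 1. In all, 9 of 48 genes had r below 0, and the share over all genes was not computed. After the length correction 15 of 48 did, so which genes ran against the core depended on it. *Psmf1* and *Psmd2* were then at -0.55 and -0.73, and *Psmd1* and *Psme4*, which have long models, at -0.13 and -0.17. The ATPase *Psmc5* went from -0.24 to -0.81, the lowest of the 48, *Psmd7* from -0.18 to -0.70 and *Psmc1* from 0.05 to -0.58. *Psmd11* went the other way, from -0.16 to 0.66. The 3 immunoproteasome subunits had r between 0.48 and 0.88. Among the chaperones, *Psmd10* (0.96) and *Psmd5* (0.92) of the 19S cap followed the core most closely.

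Body weight was tested as a slope in the same fit, with label and cage as covariates. None of the 48 genes had an adjusted p-value under 0.05 in edgeR's quasi-likelihood test, adjusted by Benjamini-Hochberg (0 of 48), and 0 of 14331 genes did (0%). DESeq2 also gave 0 of 48, as did the fit without *Npr1*+/- replicates 5, 6 and 7, in which 0 of 14033 genes passed. At an unadjusted p-value under 0.05 there were 3 of 48 genes, against 17.1% of all genes. These were *Psmd5*, a chaperone of the 19S base, with a log2 slope of 0.07 per g (SE 0.030, p = 0.0438, adjusted p = 0.282), *Psma3*, with 0.06 per g (SE 0.026, p = 0.0430, adjusted p = 0.280), and *Psmd3*, with -0.05 per g (SE 0.022, p = 0.0334, adjusted p = 0.263). The slope was above 0 for 30 of 48 genes, against 47.3% of all genes, and for 13 of the 14 standard 20S genes, whose median was 0.04 per g. The other genes with the smallest p-values were *Psmb3* (0.07 per g, p = 0.0797), *Psmd2* (-0.04 per g, p = 0.109) and *Psmd7* (-0.04 per g, p = 0.114).

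The slopes of the 6 genes named above kept their sign without any 1 mouse, but the number of genes that passed depended on 1 mouse. *Npr1*+/- replicate 7, the lightest with 36.5 g, had the lowest 20S median (-0.74), and replicate 5, with 39.4 g, the third lowest (-0.43). The second lowest (-0.67) was that of replicate 6, which weighed 46.2 g. Of the other light mice, replicate 3, with 40.1 g, lay near 0 with -0.03, and *Npr1*+/+ replicate 4, with 40.5 g, at 0.17. The heaviest mouse, *Npr1*+/+ replicate 3 with 54 g, had -0.07. Without *Npr1*+/- replicate 3, 18 of 48 genes passed in the test of body weight (edgeR's quasi-likelihood test, Benjamini-Hochberg adjusted p under 0.05), together with 22.1% of the 14284 genes tested. Of the 18, 17 rose with body weight and 1 fell, whereas 8.44% of all genes rose and 13.7% fell. When replicate 7 was left out as well, 0 of 48 passed. Replicate 3 was singled out only because its removal moved the count, so the result without it describes the dependence on 1 mouse.

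Without replicate 3, 11 of the 14 standard 20S genes rose with body weight. The smallest p-values were those of *Psma4*, with a log2 slope of 0.12 per g (SE 0.030, adjusted p = 0.0144), and *Psma3*, with 0.10 per g (SE 0.026, adjusted p = 0.0150), and the largest slope was that of *Psmb3*, with 0.13 per g (SE 0.040, adjusted p = 0.0311). *Psmb7*, *Psmb6* and *Psmb5* were among them, with 0.09, 0.10 and 0.09 per g. Of the 19S subunits, 4 of 17 rose, *Psmc3*, *Psmc6*, *Psmd6* and *Psmd8*, and of the 19S chaperones *Psmd5* and *Psmd10*. None of the immunoproteasome subunits passed (0 of 3). The gene that fell was *Psmf1*, with -0.07 per g (adjusted p = 0.0434). With the length correction and without replicate 3, 14 of 48 rose and 0 fell, whereas 20.3% of all genes passed and 9.72% rose.

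**Figure D5:**
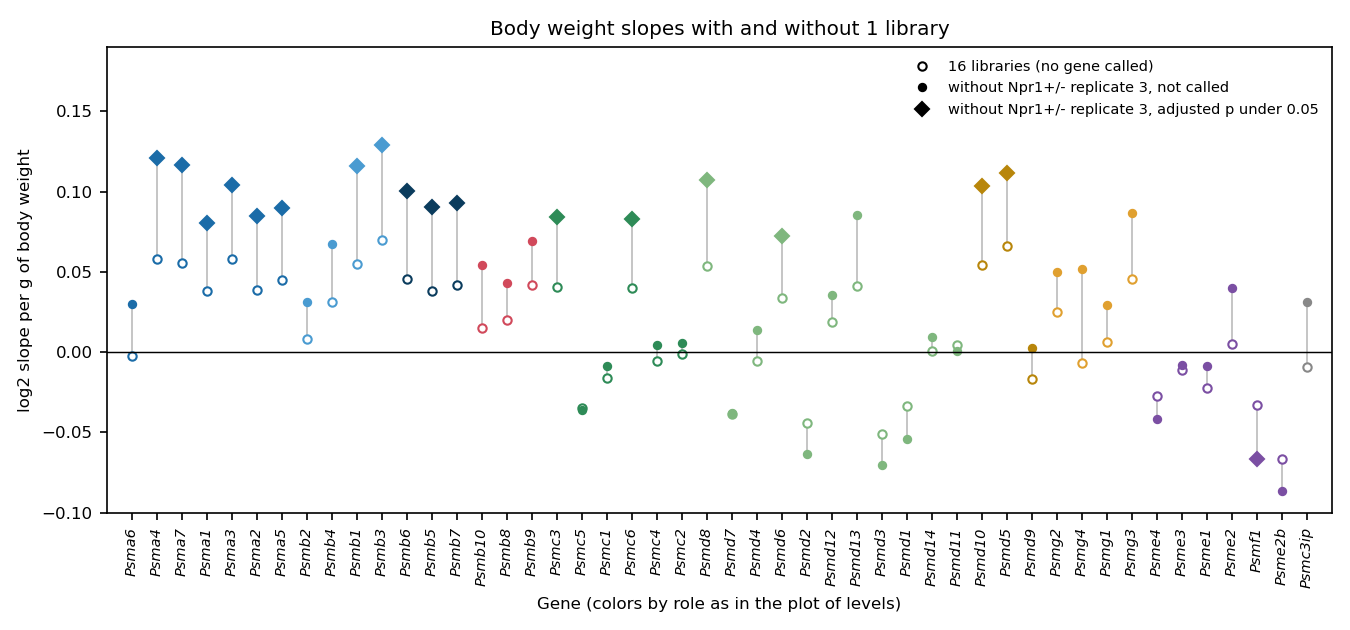
log2 slope per g of body weight for the 48 genes, with all 16 libraries (open circles, 0 called) and without *Npr1*+/- replicate 3 (filled, diamonds where the adjusted p-value was under 0.05). The 18 diamonds are 17 slopes above 0 and that of *Psmf1* below 0.

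The cage, the only batch in the labels, was tested jointly over its 4 levels. None of the 48 genes passed in edgeR's quasi-likelihood test, adjusted by Benjamini-Hochberg (0 of 48), against 4 of 14331 genes (0.0279%), and DESeq2 and the fit without *Npr1*+/- replicates 5, 6 and 7 also gave 0 of 48. At an unadjusted p-value under 0.05 there were 0 of 48, against 7.36% of all genes. The smallest p-values were those of *Psmc6* (unadjusted p = 0.0808), *Psme2* (p = 0.123) and *Psma3* (p = 0.140), with the same test. *Psmc6* had 249 ± 18.2 CPM (SD, n = 4) in cage 676 and 174 ± 38.0 CPM (SD, n = 4) in cage 675, with 191 ± 37.8 CPM (SD, n = 3) and 215 ± 59.6 CPM (SD, n = 5) in cages 677 and 678. Without *Npr1*+/- replicate 3, *Psmc6* and *Psma4* passed, with adjusted p-values of 0.0446 and 0.0482, as did 6.08% of all genes.

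Of 41 further genes of the pathway, 40 were tested, and 0 of the 40 passed between the labels in edgeR's quasi-likelihood test, adjusted by Benjamini-Hochberg. None had an unadjusted p-value under 0.05 (0 of 40), and 15 estimates were above and 25 below 0. The proteasome factors, such as the assembly factor *Pomp* and the deubiquitinase *Usp14*, had a median log2 fold change of -0.06 over 11 genes. The factor *Nfe2l1* had one of -0.07 (SE 0.17). For body weight, 0 of 40 passed, and 13 were under 0.05 before adjustment, beside 17.1% of all genes. Of these, 9 belonged to the 15 genes of ubiquitin and substrate delivery, all with a slope below 0, as were 1769 of the 2449 genes under 0.05 over all genes. *Fbxo32* and *Trim63*, the ubiquitin ligases of muscle atrophy, had log2 slopes of -0.10 and -0.08 per g (adjusted p = 0.245 for both), and were chosen for naming after their values were seen. *Fbxo32* was highest in *Npr1*+/- replicates 7, 5 and 6, with 86.2, 79.2 and 76.6 per kb against at most 58.8 per kb in the other libraries, and so was *Uba1*, the ubiquitin-activating enzyme, with 40.1, 31.7 and 42.0 against at most 25.5 per kb. *Trim63* was not: it had 105, 116 and 102 per kb there, and was highest in *Npr1*+/- replicates 1 and 10 with 127 and 117 per kb. Replicates 7 and 5 were the lightest mice, with 36.5 and 39.4 g, but replicate 6 weighed 46.2 g. Without replicates 5, 6 and 7, 8 of the 40 genes and 6 of the 15 were under 0.05 before adjustment, all with a slope below 0, beside 709 of 14033 genes, and 0 of 40 passed. In the list of 15, with all libraries, 11 of 15 slopes were below 0, whereas 13 of the 14 slopes of the standard 20S genes were above 0, and the difference between the lists was not tested.

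Gene models can overlap, and the counting is not stated to use strand. The spans of 23 of the 48 genes overlap another gene of the table, for 8 of them one with a median of 10 or more counts: *Psma2*, *Psma3*, *Psmb7*, *Psmb9*, *Psmc3*, *Psmc3ip*, *Psmd13* and *Psme2b*. Their values may hold reads of the neighbor. The 4 pseudogene symbols left out had at most 7 counts in any library.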

How the data were processed

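Bulk RNA-seq counts of skeletal muscle from 16 mice were used. Alignment to GRCm38 was done by the authors in STAR (2.7.2b, per the submitters' processing notes). They counted fragments whose ends were both aligned on the GENCODE M24 model with featureCounts, and deposited these raw counts per gene without normalization, beside the gene length in bases. The labels name a Tecan library kit and the paper's methods TruSeq, so the kit is uncertain. Symbols were paired with 55144 of 55471 identifiers.

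Genes were kept with filterByExpr by label, scaled by TMM and tested with edgeR 4.0.16 in R 4.3.3 (glmQLFit with robust = TRUE and legacy = TRUE, glmQLFTest) on label, cage and body weight in 1 fit. Benjamini-Hochberg adjustment of the p-values ran over all 14331 genes, with a threshold of 0.05. The standard error is the estimate divided by the square root of its F value. CPM uses the TMM library sizes, and deviations use log2 CPM with a prior count of 2. The length correction was a loess curve of the deviations on log2 length (span 0.5) in each library, entered as an offset. Shares were compared by two-sided exact permutation over 8008 splits, or over 360 splits within cages. The totals per library are given with the results and set the counting error, which the fit includes. The fit, the length slope and the permutation test were tested on simulated data.

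The genes named with tests were the catalytic pairs, *Psme1*, *Psme2*, the genes of highest and lowest mean level, and for each term the 3 genes with the smallest p-values in each direction, or 3 in all for cage. The members and lists were chosen with earlier results of these data known. Each library is a separate mouse. Alternatives changed the covariates, put the replicate number in as a block, used the size factors of DESeq2, DESeq2 1.42.0 itself, other filters or an unadjusted threshold, or left out each mouse in turn. The length correction, the fits without several mice and the further genes under all alternatives were added after seeing the data. The further gene *Paaf1* was not analysed here. Promoters are from RefSeq (GRCm38.p6) and were matched by symbol.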

Additional observations from a re-analysis of the deposited data

Results flagged for a closer look

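Among 21 genes named with tests and the 3 catalytic shares, the samples of each label were searched for 1 mouse far from the rest by Dixon's criterion, in 48 groups of values. Of these, 3 held such a mouse, where chance alone gives about 1 in 20. *Psmd2*, a scaffold of the 19S base, was at 6.73 log2 CPM in *Npr1*+/- replicate 9, and the other 9 mice of that label lay between 7.60 and 8.24. *Psmb6* was at 8.44 log2 CPM in *Npr1*+/+ replicate 1, and the other 5 mice lay between 7.91 and 8.10. *Psmd5* was at 5.55 log2 CPM in the same mouse, and the other 5 lay between 5.02 and 5.19. These 2 libraries were also those with the highest medians of the standard 20S genes, and the cause was not tested.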

How the results depend on the processing

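Between the labels, 0 of the 48 genes and 0 of the 40 further genes passed under each of 13 alternatives and without any 1 mouse (0 to 0). For body weight, 3 of 48 genes passed at an unadjusted p-value, 14 with the length correction and without *Npr1*+/- replicate 3, and 0 to 18 without 1 mouse. For cage, 0 to 2 of 48 passed without 1 mouse, with values above 0 for both only without *Npr1*+/- replicate 3, and 0 under the other 11 alternatives. Over all genes, the label gave 0 genes in edgeR, 6 with DESeq2, 8 without a filter and 2 with the block described next, and cage gave 4, 86 and 23 genes in edgeR, with DESeq2 and without a filter. With the length correction and without replicate 3, 2897 genes passed for body weight and 490 for cage, and without replicates 3 and 7 these were 0 and 756. The replicate numbers of the labels name different mice, so same-numbered mice share only a number. Their deviations from the label means correlated with a mean r of 0.121 over 6 pairs (lowest 0.0343), against -0.0132 over 54 other pairs. With the replicate block in place of cage, 0 of 48 genes passed for the label and 0 for body weight.

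Signs of estimates that did not pass also turned, and the cause was not tested. Without *Npr1*+/- replicates 5, 6 and 7, the log2 fold change by label was 0.13 for *Psmb5*, 0.19 for *Psmb6*, 0.17 for *Psmb7*, 0.027 for *Psme2* and 0.18 for *Psmd8*. With the length correction it was 0.011 for *Psmb6*, 0.015 for *Psmb7* and 0.032 for *Psmd8*. With cage as the only covariate it was -0.067 for *Psmb8*, -0.030 for *Psmb9*, -0.045 for *Psmg3* and -0.11 for *Psmd10*, and with the replicate block -0.15 for *Psmb9*, -0.052 for *Psmg3* and -0.22 for *Psmd10*, with a slope of -0.012 per g for *Psmb3*. The same block took estimates further below 0, to -0.40 for *Psmb5*, -0.29 for *Psmb6*, -0.25 for *Psmb7* and -0.39 for *Psmd8*. It was 0.024 for *Psme2* with body weight as the only covariate, -0.032 for *Psmd10* with the label alone and -0.016 for *Psmb8* without replicates 3 and 7. *Psmd8* had 0.013 both with the size factors of DESeq2 and with DESeq2, 0.0095 without a filter and 0.015 with the length correction and without replicate 3. Leaving out 1 mouse turned the sign for *Psmb5* (-0.21 to 0.11), *Psmb6* (-0.15 to 0.071), *Psmb7* (-0.10 to 0.068), *Psmb8* (-0.075 to 0.11), *Psmb9* (-0.064 to 0.26), *Psmb10* (-0.23 to 0.039), *Psme2* (-0.21 to 0.057), *Psmd8* (-0.18 to 0.23) and *Psmd10* (-0.032 to 0.19). It kept the sign but moved the value for *Psme2b* (-0.45 to -0.19) and *Psmg4* (-0.53 to -0.24), as for the genes given in the text on the labels. The difference in the beta2 share ranged from -0.205 to 0.625 percentage points, that in beta1 from 0.111 to 0.210 and that in beta5 from 0.220 to 0.391. From raw counts in place of counts per kb the differences were 0.332, 0.114 and 0.988 percentage points for beta1, beta2 and beta5, and none passed.

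The 6 *Npr1*+/+ mice and the spread within *Npr1*+/- limit what could be detected, with a standard error of 0.24 (log2) for *Psmb5*. *Psme2b*, with 5 to 38 counts, was limited by depth as well.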
